A study of Saccharomyces cerevisiae with 36 samples.

Results

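Congo red was set against calcofluor white in budding yeast (Saccharomyces cerevisiae) after 90 min of exposure. The comparison takes 8 of the series' 36 arrays, chosen by drug and time alone. They are 4 congo red arrays, 2 at 0.02 mg/ml and 2 at 0.1 mg/ml, and 4 calcofluor white arrays at the same 2 doses. On every array RNA of treated cells was hybridised with RNA of untreated cells, in Cy5 and Cy3 or the other way round. Replicate 1 of each condition has the treated RNA in Cy5 and replicate 2 has it in Cy3, as separate biological replicates by the design text. The labels give neither the strain nor its alleles, nor say whether arrays share an untreated culture.

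Both compounds are dyes that bind polysaccharides of the yeast wall and disturb its assembly, calcofluor white mainly through chitin and congo red through chitin and glucan. Wall damage is sensed by membrane proteins that act through Rho1 and protein kinase C on the Slt2 kinase cascade, the cell wall integrity pathway. Its transcription factor Rlm1 raises genes for wall proteins and wall synthesis. The Rim101 pathway, which reads ambient pH at the plasma membrane, and the calcineurin pathway are also known to act when the wall is stressed. Cells under broader stress induce Msn2 and Msn4 targets such as HSP12 and lower the genes that build ribosomes.

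Values are log2 ratios, treated over untreated, and a difference is the congo red ratio minus the calcofluor white ratio. A positive difference therefore means a higher ratio with congo red. Means are over the 2 doses and both dye orientations, 4 arrays with each drug, and errors are SE from limma. A gene passed where its Benjamini-Hochberg adjusted p over the 4647 genes tested was below 0.05. Values of 4 arrays are given at 0.02 mg/ml with treated RNA in Cy5 and then in Cy3, followed by 0.1 mg/ml in the same order.

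The congo red arrays differed from the calcofluor white arrays in more than single genes. The spread of log2 ratios over genes (scaled median absolute deviation) was 0.272 to 0.391 on the congo red arrays and 0.348 to 0.472 on the calcofluor white arrays. Named spots listed at the floor value of their array made up 1.609% to 4.852% with congo red and 7.109% to 16.09% with calcofluor white. Over genes, the ratios of the 2 dye orientations correlated at −0.152 (0.02 mg/ml) and −0.145 (0.1 mg/ml) with congo red and at 0.160 and 0.139 with calcofluor white, and the dye term passed for 3030 of the 4647 genes. The matched differences correlated at 0.145 and 0.163 between orientations of 1 dose, and at 0.396 and 0.378 between doses within Cy5 and within Cy3. The part of spread, floor and dye in the results below was not tested beyond the alternative fits given. The titles carry a suffix of unstated meaning that is shared by both drugs on the arrays with treated RNA in Cy5 and differs between them in Cy3, so on the Cy3 arrays it cannot be told apart from the drug. One congo red array of 0.02 mg/ml, replicate 1, is described with the higher dose in another label, and its title and channel labels were followed. The direction of the ratios is not stated in the files. It was taken as treated over untreated on every array from the descriptions, and from wall genes such as PIR3, which read above 0 on all 8 arrays in both dye orientations. The negative correlations of the congo red orientations make it less sure than with calcofluor white that both orientations read the same way. The median of the 24 wall integrity output genes was 0.74, 0.66, 0.98 and 0.75 on the congo red arrays. Those correlations do not bear on the direction shared by all arrays. The opposite direction on all of them would turn the sign of every value below.

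More genes passed against untreated cells with calcofluor white than with congo red. Against untreated cells 145 genes rose with congo red (3.12% of those tested) and 42 fell (0.904%), whereas 558 rose with calcofluor white (12%) and 658 fell (14.2%). Both drugs passed for 174 genes, which is 93.05% of the congo red calls and 14.31% of the calcofluor white calls. Of these, 136 rose with both and 36 fell with both. The other 2, RIM9 and LRS4, went opposite ways. Untreated cultures may be shared between the drugs, so the overlap is given as a count with no test.

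The difference between the drugs passed for 76 genes (1.64% of those tested), 56 higher with congo red (1.21%) and 20 lower (0.43%). Of the 56 that were higher, 55 had fallen with calcofluor white. All 20 that were lower had risen with calcofluor white. The absolute change was larger with calcofluor white for 73 of the 76. The differences ran from 0.42 to 1.004 among the higher genes and from −1.66 to −0.42 among the lower ones. In 75 of the 76 all 4 differences matched for dose and dye orientation had one sign, and the exception was RCR1. Of all genes tested 26.1% had one sign. The 76 were called on the mean of these same 4 differences, so the agreement partly follows from the call and is no separate support.

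That count depends on the treatment of array spread and on single arrays. No gene passed when arrays were scaled to one spread, where 350 had an unadjusted p below 0.05 in limma, against 689 as reported. Without the replicate block, which here is the dye term, 1 gene passed, HSP12. The count was 9 without congo red 0.1 mg/ml replicate 2, 11 without congo red 0.02 mg/ml replicate 2, 13 without calcofluor white 0.1 mg/ml replicate 2, 20 without calcofluor white 0.02 mg/ml replicate 2 and 27 without congo red 0.02 mg/ml replicate 1. HSP12 also passed without the block. Of the 41 genes named below that passed, HSP12, DST1 and DAS2 passed in all 8 single-array omissions, and the other 38 lost the call in 2 to 8 of them. HSP12 did not pass with scaled arrays, with only the 8 arrays in the fit or from the 4 matched differences by themselves.

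**Figure D1:**
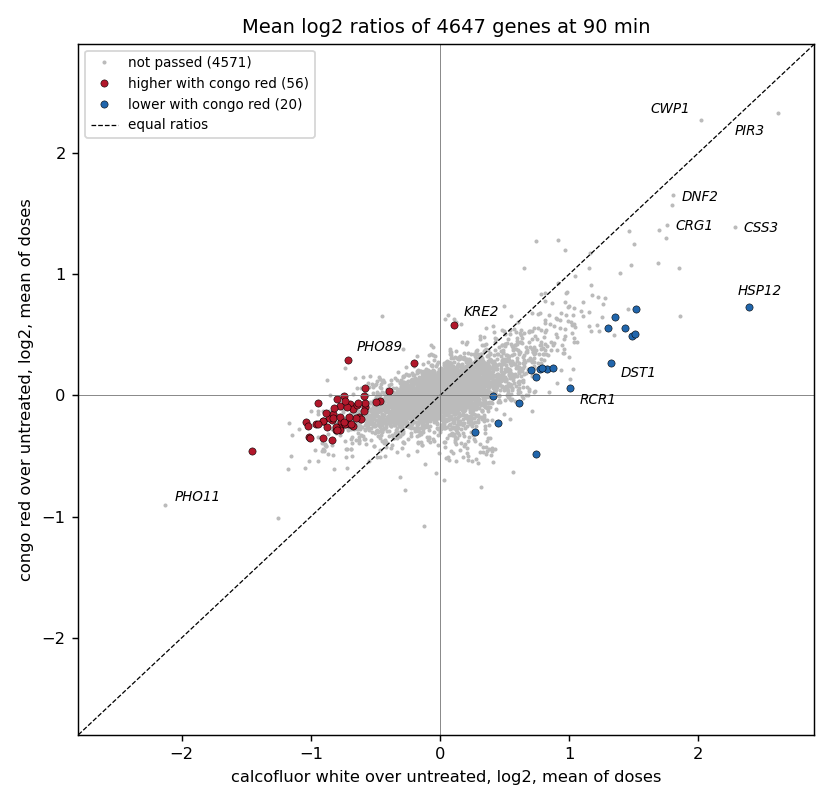
Mean log2 ratio over untreated cells with congo red (vertical) against calcofluor white (horizontal) for 4647 genes, each mean over 4 arrays. Red points are the 56 genes higher with congo red, most of them left of 0 on the calcofluor white axis, and blue points the 20 lower ones; the dashed line marks equal ratios.

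HSP12 (YFL014W), a small membrane-associated protein of the general stress response, differed most among the genes that passed. Its log2 ratio was 0.76, 0.57, 0.99 and 0.59 on the congo red arrays and 2.06, 3.26, 2.11 and 2.14 on the calcofluor white arrays. The 2 groups did not overlap, and every array showed a rise. The mean was 0.73 ± 0.13 with congo red and 2.39 ± 0.13 with calcofluor white, 1.66-fold and 5.25-fold over untreated cells. The difference was −1.66 ± 0.18 (adjusted p = 2.61e-05), and it passed at 0.02 mg/ml (−1.99) and at 0.1 mg/ml (−1.33) by itself. At 15 min the means were 0.00 with congo red and 0.03 with calcofluor white.

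DDR48, another stress gene, had 0.98, 0.10, 1.18 and 0.32 with congo red and 1.73, 0.52, 2.20 and 0.98 with calcofluor white. Ratios were lower in Cy3 with both drugs, so the groups overlapped, yet each congo red array lay below its matched partner. The difference was −0.71 ± 0.18 (adjusted p = 0.0440), a call lost in each of the 8 single-array omissions. Of 38 general stress genes tested, HSP12 and DDR48 were lower with congo red, 0 were higher and 36 did not pass. Congo red raised 5 of them and calcofluor white 12. Over all genes tested, 0.43% were lower with congo red than with calcofluor white. Against untreated cells 3.12% of all genes rose with congo red and 12% with calcofluor white. GLK1, the glucokinase gene, had a difference of −0.56 (adjusted p = 0.0840) and DDR2 one of −0.42 (adjusted p = 0.231), neither passing. The median difference of the list was −0.05, against 0.02 over all genes tested. The list median thus lay close to that of all genes.

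Other genes that calcofluor white raised further have varied roles. ZWF1, glucose-6-phosphate dehydrogenase at the entry to the pentose phosphate pathway, had 0.51, 0.64, 0.41 and 0.46 with congo red and 1.27, 1.54, 1.45 and 1.79 with calcofluor white. The lowest calcofluor white array was above the highest congo red array, and the difference was −1.01 ± 0.20 (adjusted p = 0.0159). MET1, an enzyme of the siroheme cofactor needed for sulfite reduction, had 0.85, 0.96, 0.55 and 0.49 with congo red and 1.48, 1.52, 1.58 and 1.49 with calcofluor white. Again there was no overlap, and the difference was −0.81 ± 0.17 (adjusted p = 0.0216).

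CBS2, a translational activator of mitochondrial cytochrome b, had 1.09, 0.35, 0.65 and −0.13 with congo red and 1.57, 1.42, 1.66 and 1.30 with calcofluor white, with a difference of −0.999 ± 0.18 (adjusted p = 0.0112). Its congo red arrays scattered more widely but stayed below all 4 calcofluor white arrays. DST1, the elongation factor TFIIS of RNA polymerase II, had 0.94, −0.01, 0.17 and −0.02 with congo red and 1.81, 0.67, 1.93 and 0.89 with calcofluor white. One congo red array lay above the lowest calcofluor white array. The matched differences were all below 0, which the naming rule required. Here the difference was −1.06 ± 0.17 (adjusted p = 0.00453), and it also passed at 0.1 mg/ml by itself.

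Congo red also raised PAU19 (0.55 ± 0.13), of the seripauperin family, and SFL1 (0.56 ± 0.12), a repressor of flocculation genes. Calcofluor white raised them further, with differences of −0.88 and −0.74. PAU genes are near copies of each other, and their spots may read more than 1 member. UME6, a regulator of meiotic genes, and KOG1, a subunit of the TORC1 kinase complex, passed with differences of −0.67 and −0.61, while neither passed with congo red alone (−0.06 and 0.22). The same held for MCM5 of the replicative helicase (−0.59), for the Arf exchange factor gene GEA1 (−0.67) and for TMC1 (−0.65). The call of TMC1 was lost in each of the 8 single-array omissions and that of GEA1 in 7. IRC20, a helicase and ubiquitin ligase, had a difference of −1.23 that rested on 1 array. It read −2.15, −0.07, 0.51 and −0.21 with congo red and 1.09, 0.54, 0.76 and 0.61 with calcofluor white, and without the first array the difference was −0.62 and did not pass.

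**Figure D2:**
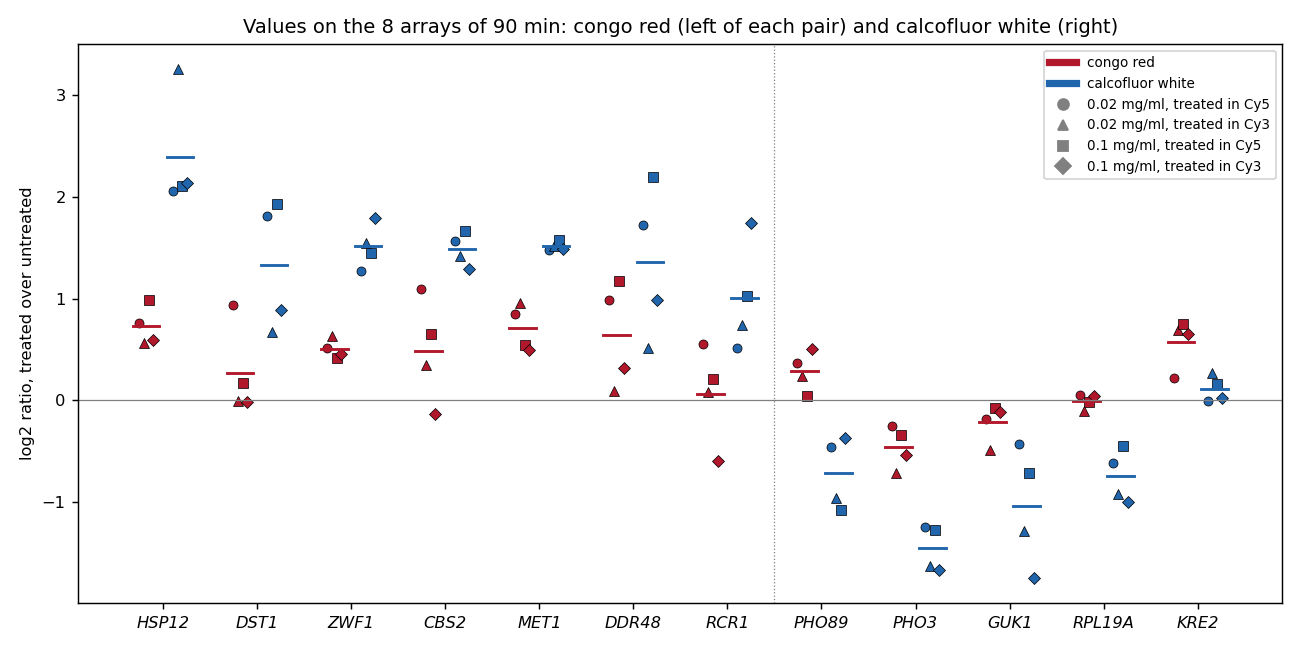
Log2 ratio, treated over untreated, of 12 genes that passed, on each of the 8 arrays, congo red left and calcofluor white right of each pair; bars are means of 4 arrays and symbols give dose and dye. HSP12 reads 0.57 to 0.99 with congo red and 2.06 to 3.26 with calcofluor white, and the genes right of the dotted line were higher with congo red.

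Ribosomal protein genes made up 24 of the 56 genes that were higher with congo red. They are 2.389% of the genes tested. Of 111 cytosolic ribosomal protein genes tested, 24 were higher with congo red, 0 were lower and 87 did not pass, while 108 had a mean difference above 0. Of all 4647 genes tested, 2475 had a mean difference above 0. The median difference was 0.41 over the list and 0.02 over all genes. Against untreated cells 8 of the 111 fell with congo red (median −0.18) and 98 with calcofluor white (median −0.59), and none rose with either drug. Over all genes tested, 1.21% were higher with congo red, and 0.904% fell with congo red and 14.2% with calcofluor white. Small subunit genes passed in 15 of 45 (median 0.47) and large subunit genes in 9 of 66 (median 0.39).

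The ribosomal protein list moved with dye orientation as well as with drug. Its median was 0.18, −0.54, 0.13 and −0.47 on the congo red arrays and −0.07, −0.97, −0.16 and −1.20 on the calcofluor white arrays. Medians were lower in Cy3 in both groups, and each calcofluor white array lay below its congo red partner. The matched medians of the difference were 0.26, 0.44, 0.27 and 0.66, and 83 of the 111 genes were above 0 in all 4. Of all 4647 genes tested, 670 were above 0 in all 4. With arrays scaled to one spread the median difference was 0.29 and with values not centred it was 0.55, so its sign held, while the number of calls was 0 and 50. With quantile normalization the median was 0.271 with 0 calls, and with the sign of 1 caffeine array turned 4 genes passed at the same median of 0.41. That array was caffeine 2 mM at 5 min, replicate 1, with a spread of 0.62 against 0.35 on replicate 2. Which sign is right for it was not tested. Only 2 passed without congo red 0.02 mg/ml replicate 1 and 14 without calcofluor white 0.02 mg/ml replicate 1. Calls were also 0 without the replicate block and with only the 8 arrays. Calls fell to 0 as well without any one of the 4 arrays in Cy3, where the median stayed between 0.35 and 0.40.

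RPL19A, of the large subunit, had 0.05, −0.11, −0.02 and 0.05 with congo red and −0.62, −0.92, −0.45 and −1.001 with calcofluor white. The congo red values lay around 0 and the groups did not overlap, with a difference of 0.74 ± 0.16 (adjusted p = 0.0227). RPS19A, of the small subunit, had 0.05, −0.68, 0.04 and −0.34 with congo red and −0.41, −1.34, −0.47 and −1.58 with calcofluor white. Its groups overlapped across the dyes and were apart within each of them, at a difference of 0.72 ± 0.16 (adjusted p = 0.0256). RPL37B (0.77), RPS31 (0.73), RPS28B (0.72), RPS3 (0.70), RPL12B (0.67) and RPS9A (0.62) also passed. RPL42A passed as a fall with both drugs, at a mean of −0.29 with congo red and −0.80 with calcofluor white. With congo red it read 0.28, −0.79, 0.20 and −0.84, above 0 in Cy5 and below 0 in Cy3. Most of these genes have a near-identical copy, so a spot may read both.

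**Figure D3:**
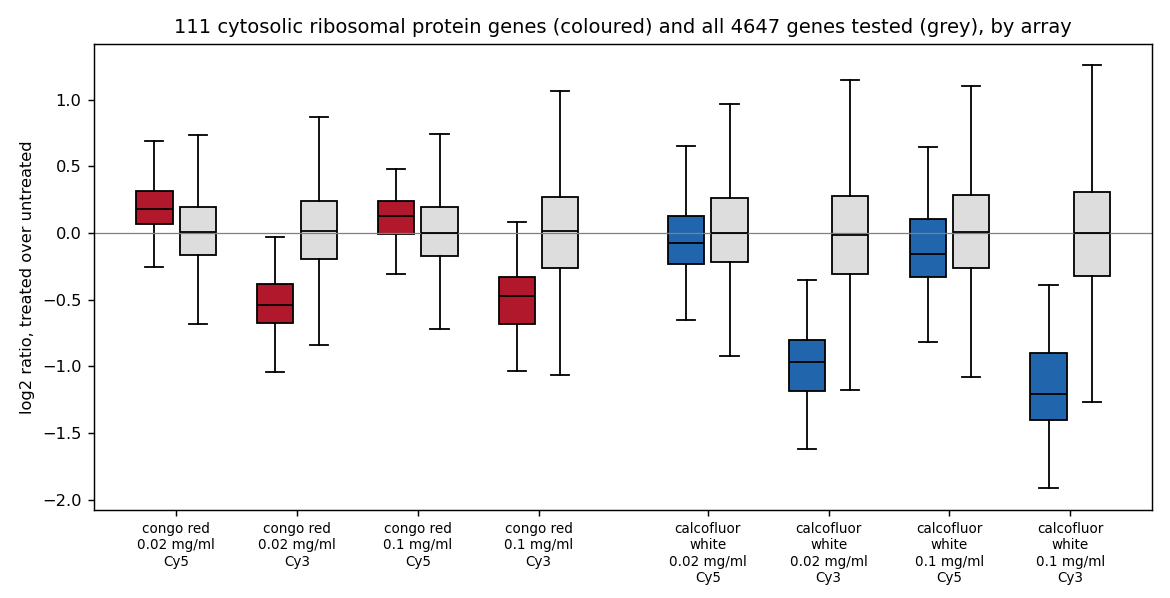
Log2 ratios of 111 ribosomal protein genes (coloured) and of all 4647 genes tested (grey) on each of the 8 arrays; boxes span the quartiles, lines mark medians and whiskers reach 1.5 times the box, with points beyond left out. The median of the coloured boxes is 0.18, −0.54, 0.13 and −0.47 with congo red and −0.07, −0.97, −0.16 and −1.20 with calcofluor white.

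Genes that assemble ribosomes had a median difference of 0.16 over 92 tested, against 0.02 over all genes. None of the 92 passed in either direction, a count near the 1.64% called over all genes and so no result about this list. Congo red lowered 3 of them (0.904% of all genes), and calcofluor white lowered 40 (14.2% of all genes) and raised 2 (12% of all genes). NIP7, a 60S assembly factor, fell with both drugs, at −0.54 ± 0.09 with congo red and −1.01 ± 0.09 with calcofluor white, and its difference of 0.47 did not pass (adjusted p = 0.0712). RPA43, of RNA polymerase I, gave −0.45 with congo red, −0.90 with calcofluor white and 0.45 for the difference (adjusted p = 0.0607). Core histones fell in 2 of 9 genes with congo red and in 7 with calcofluor white, with a median difference of 0.25. By array the histone median was 0.22, −0.37, 0.04 and −0.52 with congo red. With calcofluor white it was 0.04, −0.78, 0.05 and −0.65, so it lay below 0 only in Cy3 with both drugs. Among 44 amino acid synthesis genes of Gcn4 control, congo red lowered 1 and calcofluor white 14. None of the histone and Gcn4 genes passed the difference, again near the share over all genes.

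The phosphate genes PHO89 and PHO3 had the highest differences among those that passed. The phosphate regulon is read through Pho4, and its products take up phosphate or free it from outside the cell. PHO89, a member of that regulon and a sodium-phosphate cotransporter of the plasma membrane, had 0.37, 0.24, 0.04 and 0.50 with congo red and −0.46, −0.96, −1.07 and −0.37 with calcofluor white. All congo red arrays were above 0 and all calcofluor white arrays below. PHO89 did not pass against untreated cells with congo red (0.29 ± 0.13), fell with calcofluor white (−0.72 ± 0.13), and gave a difference of 1.004 ± 0.18 (adjusted p = 0.0126).

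PHO3, an acid phosphatase that is repressed by thiamine and is not among the genes Pho4 induces when phosphate is short, had −0.25, −0.71, −0.34 and −0.54 with congo red and −1.25, −1.63, −1.27 and −1.67 with calcofluor white, without overlap. Its difference was 0.99 ± 0.22 (adjusted p = 0.0236). PHO11, a secreted acid phosphatase, was lower still with −0.76, −1.17, −0.43 and −1.25 with congo red and −0.84, −2.35, −1.12 and −4.19 with calcofluor white. It fell with each drug, and its calcofluor white arrays scattered widely. The difference of 1.22 ± 0.33 did not pass (adjusted p = 0.0676). Its near-identical copy PHO12 gave −0.60 with congo red and −1.04 with calcofluor white. Of 24 genes listed for phosphate, PHO3 included, 2 were higher, 0 were lower and 22 did not pass. Congo red lowered 2 and raised 1, and calcofluor white lowered 10 and raised 3. Over all genes tested, 1.21% were higher with congo red than with calcofluor white. Against untreated cells 0.904% of all genes fell and 3.12% rose with congo red, and 14.2% fell and 12% rose with calcofluor white. The raised counts lay near those shares and are no result about this list.

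Several metabolic genes fell with calcofluor white and did not pass with congo red. SAM1, S-adenosylmethionine synthetase, had −0.13, 0.06, −0.18 and 0.01 with congo red and −0.89, −2.18, −0.35 and −0.36 with calcofluor white. The low dose of calcofluor white carried the lowest values, and the difference of 0.88 ± 0.18 (adjusted p = 0.0174) was 1.502 at 0.02 mg/ml and 0.27 at 0.1 mg/ml. Without calcofluor white 0.02 mg/ml replicate 2 it was 0.57 and did not pass. GUK1, guanylate kinase, had −0.18, −0.49, −0.08 and −0.12 with congo red and −0.43, −1.28, −0.71 and −1.74 with calcofluor white, at a difference of 0.82 ± 0.16 (adjusted p = 0.0159). Its values were lower in Cy3 with calcofluor white, and 1 congo red array lay below the highest calcofluor white one.

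Among transporters, 2 of 21 hexose transport genes, HXT2 (0.56) and HXT17 (0.60), were higher with congo red and the other 19 did not pass. Congo red raised 1 of the 21, and calcofluor white lowered 6 and raised 2. The list median with calcofluor white was 0.06, −0.47, 0.004 and −0.44, below 0 only in Cy3. Over all genes tested, 1.21% were higher with congo red than with calcofluor white. Against untreated cells 3.12% of all genes rose with congo red, and 14.2% fell and 12% rose with calcofluor white. The raised counts lay near those shares and are no result about this list. ENB1, which takes up the siderophore enterobactin, was the 1 of 27 iron genes that passed (0.76 ± 0.18, adjusted p = 0.0321). FEX2, a fluoride exporter, differed by 0.69 and ASP3-2, a wall-associated asparaginase, by 0.74; both have near-identical copies elsewhere in the genome. DAS2 differed by 0.69 ± 0.10 (adjusted p = 0.00342), SNU114 of the spliceosome by 0.69 and the mitochondrial ribosomal gene MRPL39 by 0.64. None of these 8 genes passed against untreated cells with congo red.

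In the lists of heat shock chaperones, respiratory chain, actin and proteasome genes, calls are given against untreated cells, where 3.12% of all genes rose and 0.904% fell with congo red and 12% rose and 14.2% fell with calcofluor white. None of their members passed the difference, which at 1.64% over all genes and 27 to 35 members a list says nothing about them. Congo red lowered 0 of 27 heat shock chaperone genes and calcofluor white 7. The Hsp110 gene SSE1 read −0.07 ± 0.08 with congo red and −0.44 ± 0.08 with calcofluor white, and its difference of 0.37 missed the threshold (adjusted p = 0.0995). Of 33 respiratory chain genes congo red changed 0, and calcofluor white raised 7 and lowered 2. SDH3, a membrane subunit of succinate dehydrogenase, read 0.27 ± 0.10 with congo red and 0.76 ± 0.10 with calcofluor white, with a difference of −0.49 (adjusted p = 0.0995). In the list of actin patches and endocytosis, congo red raised 1 of 35 genes, and calcofluor white raised 10 and lowered 1. ARC40, a subunit of the Arp2/3 complex that nucleates actin, came closest there with −0.73 ± 0.19 (adjusted p = 0.0528). Proteasome genes rose in 2 of 30 with congo red, and with calcofluor white 7 rose and 3 fell.

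**Figure D4:**
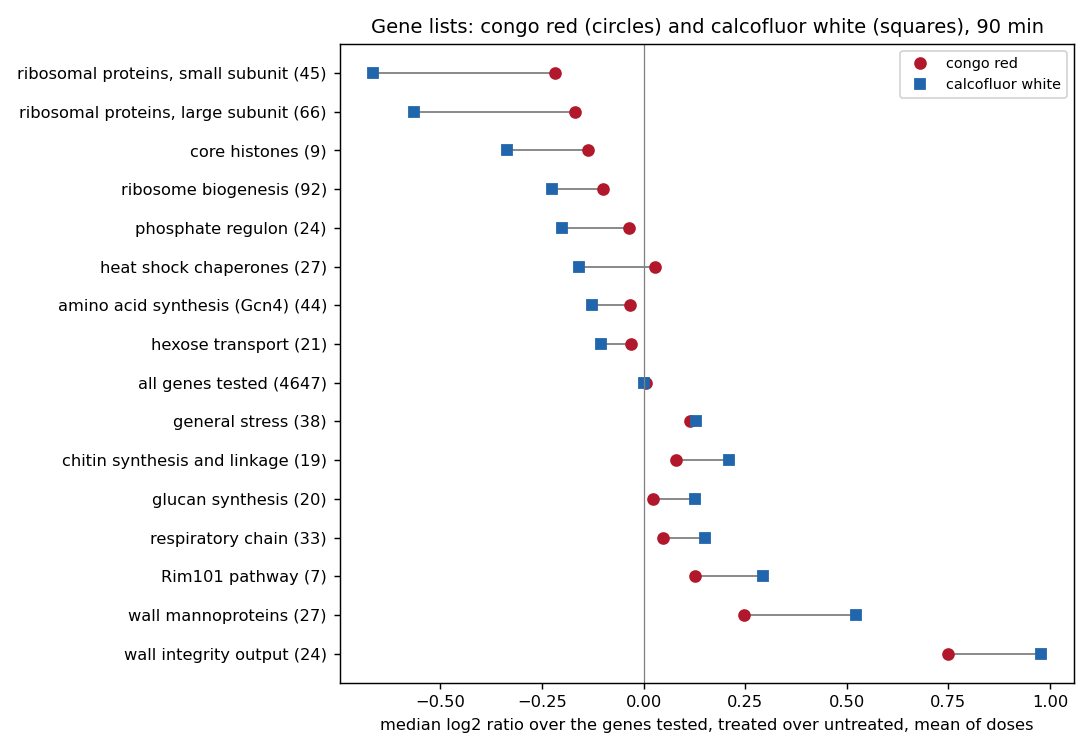
Median log2 ratio over untreated cells of 15 gene lists and of all genes tested, congo red as circles and calcofluor white as squares, with the number of genes tested in brackets. The widest gaps are those of the ribosomal proteins, with the small subunit at −0.22 with congo red and −0.67 with calcofluor white, and all genes sit at 0.00 with both drugs.

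Most output genes of the wall integrity pathway rose with each drug. Of 24 such genes tested, congo red raised 17 and lowered 0, and calcofluor white raised 21 and lowered 1. Over all genes tested, 3.12% rose and 0.904% fell with congo red, and 12% rose and 14.2% fell with calcofluor white. The list was chosen with earlier results of these data known. The median of the 24 genes was 0.75 with congo red and 0.98 with calcofluor white. The median difference was −0.26, but it turned to 0.10 with arrays scaled to one spread and to 0.07 with quantile normalization, so no direction holds for the list. Among 27 wall mannoproteins, congo red raised 10 and calcofluor white raised 17 and lowered 3. None of either list passed the difference, a share near the 1.64% over all genes.

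PIR3 (YKL163W), a wall protein bound to beta-glucan, had 1.89, 2.51, 2.37 and 2.54 with congo red and 2.58, 2.60, 2.66 and 2.65 with calcofluor white. Each congo red array lay below its partner, and the widest gap was on the first pair. The mean was 2.33 with congo red, 5.02-fold over untreated cells, and 2.62 with calcofluor white, 6.15-fold. The difference was −0.29, with a 95% interval reaching down to −0.75 and up to 0.16. CWP1, a GPI-anchored mannoprotein, had 2.22, 1.93, 2.54 and 2.40 with congo red and 1.91, 2.10, 2.19 and 1.87 with calcofluor white. These groups overlapped, and the interval of the difference spanned −0.26 to 0.77. At 15 min PIR3 averaged 0.33 with congo red and 0.67 with calcofluor white, and CWP1 averaged 0.48 and 0.76 in the same 2 groups of 4 arrays.

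Other shared rises included DNF2, a flippase that moves phospholipids across the plasma membrane, at 1.65 ± 0.16 with congo red and 1.80 ± 0.16 with calcofluor white. Its difference lay between −0.63 and 0.33 at 95%. CRG1, a methyltransferase gene, reached 1.41 ± 0.11 with congo red and 1.76 ± 0.11 with calcofluor white, a difference of −0.35 that did not pass (adjusted p = 0.304). SED1, a GPI wall protein, gave 1.36 with congo red and 1.69 with calcofluor white. HSP150, a relative of PIR3, gave 1.30 with congo red and 1.75 with calcofluor white. CSS3 differed further, at 1.39 with congo red and 2.28 with calcofluor white. Its difference of −0.89 ± 0.28 did not pass (adjusted p = 0.124), with a 95% interval of −1.49 to −0.30. The 10 strongest shared rises were completed by YKE4, RIM21 and GDE1, at 1.57, 1.35 and 1.25 with congo red and 1.80, 1.46 and 1.502 with calcofluor white. ZRC1, the vacuolar zinc transporter, led the shared falls with −1.01 ± 0.25 with congo red and −1.25 ± 0.25 with calcofluor white.

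In the list of glucan synthesis and remodelling, KRE2 was the gene that passed. KRE2 is a Golgi mannosyltransferase that extends the mannose chains of wall proteins, and does not itself make glucan. It had 0.22, 0.69, 0.75 and 0.65 with congo red and −0.01, 0.27, 0.16 and 0.02 with calcofluor white. It rose with congo red (0.58 ± 0.08), did not pass with calcofluor white (0.11 ± 0.08), and differed by 0.47 ± 0.11 (adjusted p = 0.0395), a call lost without any one of 7 of the 8 arrays. KRE2 and LRS4 were the 2 of the 56 higher genes that rose with congo red. LRS4, named after its values were seen, gave 0.27 ± 0.06 with congo red and −0.20 ± 0.06 with calcofluor white. Of 20 genes tested in that list, KRE2 was higher and 19 did not pass, while 1.21% of all genes tested were higher. GSC2, the stress-induced glucan synthase subunit, had 0.60, 0.75, 0.86 and 0.66 with congo red and 1.34, 1.77, 1.98 and 0.75 with calcofluor white. The last of these fell inside the congo red range. Its difference of −0.74 ± 0.24 did not pass (adjusted p = 0.130). PMT3, a protein O-mannosyltransferase, was lower with congo red by a difference of −0.56 ± 0.13 (adjusted p = 0.0375), a call lost in each of the 8 single-array omissions.

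RCR1 and RIM9 were the genes of the chitin and Rim101 lists that passed, both lower with congo red, as were 0.43% of all genes tested. RCR1 encodes a membrane protein named for the resistance to congo red that its overexpression gives. Its ratio was 0.56, 0.08, 0.21 and −0.60 with congo red and 0.52, 0.75, 1.03 and 1.74 with calcofluor white. At 0.02 mg/ml in Cy5 the drugs were level, and the widest gap was at 0.1 mg/ml in Cy3. RCR1 did not pass with congo red (0.06 ± 0.13), rose with calcofluor white (1.01 ± 0.13), and differed by −0.95 ± 0.19 (adjusted p = 0.0170). The other 18 of 19 chitin genes did not pass, among them CHS3, the main chitin synthase, at −0.36 ± 0.20 (adjusted p = 0.418).

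RIM9, a plasma membrane protein of the pH sensing complex, had 0.27, −0.29, −0.29 and −0.91 with congo red and 0.55, −0.24, 0.73 and 0.04 with calcofluor white. As a mean it fell with congo red (−0.31 ± 0.07), rose with calcofluor white (0.27 ± 0.07) and differed by −0.57 ± 0.11 (adjusted p = 0.0126). Its ratio was lower in Cy3 than in Cy5 at each dose of both drugs. At 0.02 mg/ml both drugs read above 0 in Cy5 and below 0 in Cy3. The other 6 Rim101 genes tested did not pass. RIM21, the sensor of the same complex, was raised by both drugs and differed by −0.11 ± 0.34. The repressor gene NRG1 differed by −0.70 ± 0.32, RIM8 and RIM20 by −0.17 each, VPS20 by −0.11 and SMP1 by 0.22. RIM101 itself had a value on 19 of 36 arrays and was not tested.

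**Figure D5:**
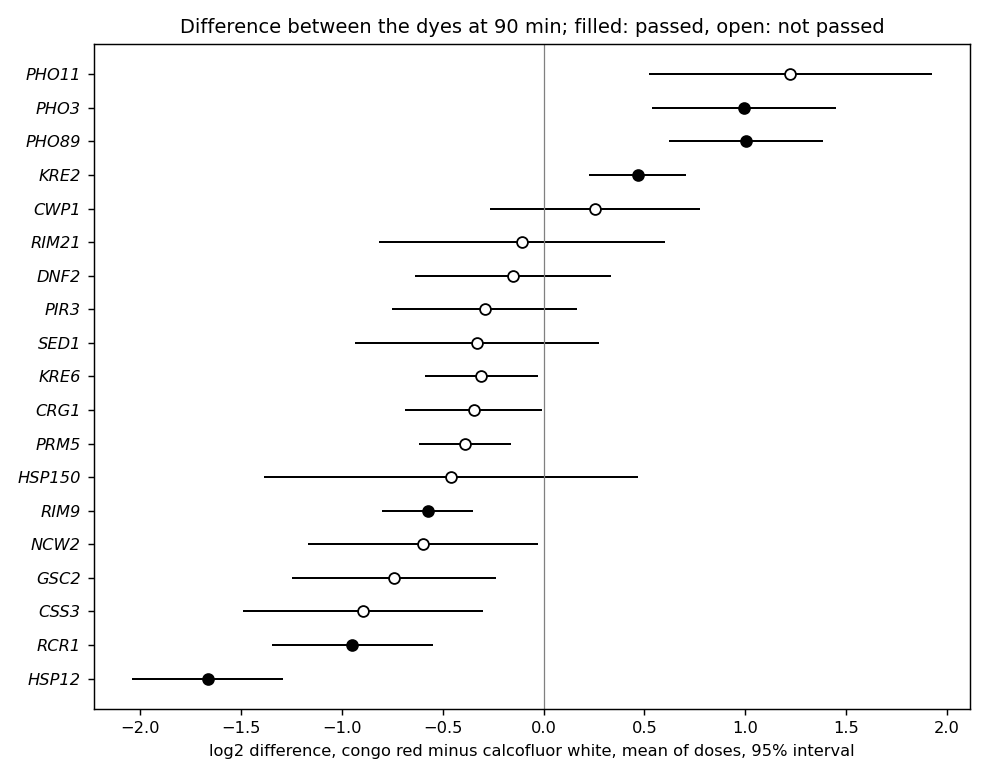
Difference, congo red minus calcofluor white on the log2 scale, with its 95% interval for 19 genes of the wall, pH sensing, phosphate and stress groups; filled points passed and open points did not. PIR3 and CWP1 have intervals across 0, and HSP12 and RCR1 lie below it.

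At 0.02 mg/ml 2 genes passed (0.043%), HSP12 lower and SAM1 higher with congo red, and at 0.1 mg/ml 14 passed (0.301%). With an unadjusted p below 0.05 there were 257 genes at 0.02 mg/ml and 570 at 0.1 mg/ml. The interaction of drug and dose passed for 0 genes (0%) in limma, with 102 below an unadjusted 0.05. The difference in counts between the doses was not tested, and it turned round without calcofluor white 0.02 mg/ml replicate 1, where 35 genes passed at 0.02 mg/ml, 7 at 0.1 mg/ml and 15 for the interaction. Without calcofluor white 0.1 mg/ml replicate 1 the interaction passed for 9. Among the 14 genes that passed at 0.1 mg/ml, apart from HSP12, the lowest differences were those of RCR1 (−1.58 ± 0.27), DST1 (−1.34), CBS2 (−1.22) and RIM9 (−0.99). The highest among the 14 were GUK1 (1.13 ± 0.23), INP53 (1.06), RPS9A (0.89), DAS2 (0.80) and RPS6A (0.69).

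RIM9 differed by −0.16 ± 0.15 at 0.02 mg/ml and by −0.99 ± 0.15 at 0.1 mg/ml. Its interaction was −0.83 ± 0.21, with an adjusted p of 0.9998 over all genes in limma. The same adjusted p applied to PAU6 (1.51 ± 0.37) and LSM12 (1.96 ± 0.52), the other genes with the smallest interaction p. SAM1 had an interaction of −1.24 ± 0.36 (unadjusted p = 0.0024 in limma), which missed the threshold at the same adjusted p. For LSM12 the change rested on 1 array, calcofluor white 0.02 mg/ml replicate 2, which read 2.40 where the other 7 lay between −0.58 and 0.45.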

How the data were processed

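Per the labels, 36 two-channel yeast arrays cover 3 drugs, and the 8 of congo red and calcofluor white at 90 min were compared. The deposited values are natural log ratios made by the authors, as read from the values. For scanner, background correction and normalization, the method is not given in the sources used here. Gene names exist for 11872 of the 15488 spots, or 5713 genes, all matched to RefSeq. Each array's floor value was treated as missing, natural logs were divided by 0.6931 to give log2, spots averaged per gene and arrays centred on the median. Genes with values on at least 24 of 36 arrays and on all 8 arrays of 90 min were tested (4647).

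The model (limma 3.58.1, R 4.3.3) used all 36 arrays and held, for each gene, 18 terms for conditions plus 1 for the dye of the treated RNA, leaving 17 residual degrees of freedom. Adjustment was by Benjamini-Hochberg at 0.05. The dye term equals the replicate block. It was kept since deviations of arrays with one replicate number correlated at 0.553 to 0.789 in 6 of 6 pairs of the 4 conditions. Precision is limited by the number of arrays; the difference had a median SE of 0.165. On simulated data 85 of 100 genes changed by a log2 of 1 and 98 of 100 changed by 2 were recovered for the mean difference over 4647 genes, with 8 false among 191 calls. The simulated noise was independent and normal, with the same spread on every array for a gene, as the model assumes. Unequal spread of arrays and differences correlated within a dye were not simulated. The recovery and the false calls therefore need not hold for the real arrays.

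Named genes were the 15 highest and 15 lowest differences that passed with one sign in all 4 matched differences, up to 5 each way per dose, 3 of smallest p for the interaction, up to 4 of smallest p per gene list, all Rim101 genes, 10 shared rises and 5 shared falls, and 9 names taken from earlier results of these data. The members and lists were chosen with earlier results of these data known. Promoter motifs were not searched here. Alternatives tried are given at the end.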

Additional observations from a re-analysis of the deposited data

How the results depend on the processing

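The number of genes that differed between the drugs as a mean of doses (76) was 0 with arrays scaled to one spread, 3 with quantile normalization, 0 with only the 8 arrays, 1 without the replicate block, 0 from the 4 matched differences alone (chosen after seeing the data), 39 with the sign of 1 caffeine array turned, 152 with array weights, 185 with values not centred (176 higher and 9 lower) and 187 with only the 24 arrays of the 2 dyes. The caffeine array turned was 2 mM at 5 min, replicate 1. Not centring moved the median difference of all genes to 0.154. Leaving out 1 array gave 9 to 97. At 0.02 mg/ml (2) the count was 1 scaled, 1 with quantile normalization, 0 with only the 8 arrays and 5 with only the 24, and 2 to 35 with 1 array left out. At 0.1 mg/ml (14) it was 0 scaled, 0 with quantile normalization, 0 with only the 8 arrays, 1 without the replicate block, 5 with floored values kept, 7 with array weights, 8 with the caffeine sign turned, 23 not centred and 46 with only the 24, and 3 to 48 with 1 array left out. The interaction (0) gave 0 to 15 with 1 array left out. Against untreated cells, congo red (187) gave 122 with only the 8 arrays, 71 without the replicate block, 282 with only the 24 and 362 with array weights, and 81 to 183 with 1 array left out. Calcofluor white (1216) gave 561 without the replicate block, 807 with quantile normalization and 760 to 1203 with 1 array left out. No gene that passed and is named changed sign in the 21 alternatives run. The causes of these shifts were not tested. With only the 8 arrays or the 4 matched differences, few residual degrees of freedom remain. HSP12 passed in 18 of 21 alternatives and DST1 and DAS2 in 16, and the median of the spots or no minimum of arrays left the count at 76.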
